A study of Mus musculus with 20 samples.

Results

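MHC class II molecules display peptides from the endosomal compartment to CD4+ T cells, and the genes described here are the 10 whose symbols name a chain, a chaperone or the master regulator of that pathway in the mouse. They were found by symbol in the bone marrow and the kidney count tables, which list the same 55486 genes, and all 10 were present once in each table. The series compared mice given oxaliplatin with mice given its vehicle. Of the 10 genes, all passed the filter on low counts in bone marrow and 9 passed it in kidney, where H2-Oa was too low to be tested.

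The animals were 10-week-old C57BL/6 mice. One group received oxaliplatin, a platinum drug used against colorectal cancer, at 10 mg/kg by intraperitoneal injection in 5% dextrose over 8 weeks, and the other received 5% dextrose alone. RNA was sequenced from 5 bone marrow and 5 kidney libraries of each group, 20 in all, and the labels call the 5 of a group biological replicates. Marrow was spun out of tibia and femur and neither tissue was sorted, so every level is an average over all cell types present, and fewer cells of a type cannot be told apart from less RNA per cell. Total counts were 30660153 to 41140527 per marrow library and 24393007 to 30925430 per kidney library. The 4 Y-linked genes looked at were expressed in all 20 libraries, at 20.3 to 57.6 CPM in marrow and 15.2 to 33.1 CPM in kidney, while the labels give no sex and the study's methods name male and female mice. No library stood out as a copy of another, but marrow oxaliplatin library 4 and kidney oxaliplatin library 1 stood apart from their groups in several class II genes.

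The pathway works in steps. An alpha and a beta chain (H2-Aa with H2-Ab1) assemble on the invariant chain Cd74, which blocks the groove until endosomal proteases cut it down. The heterodimer H2-DM (H2-DMa with H2-DMb1 or H2-DMb2) then exchanges the remaining fragment for peptides, and H2-DO (H2-Oa with H2-Ob) inhibits H2-DM. H2-Eb1 is the beta chain of H2-E, whose alpha chain gene H2-Ea is annotated as a polymorphic pseudogene. H2-Ea had 0 to 13 reads per marrow library and 0 or 1 per kidney library. The RNA of H2-Eb1 therefore does not measure an H2-E molecule. Ciita, the class II transactivator, is recruited by factors bound to short promoter elements and switches the whole set on. B cells, dendritic cells and activated macrophages are the cells best known for it, and H2-DO is known above all from B cells.

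Of the 10 genes, 8 lie on chromosome 17 within 34092340 to 34316674 of GRCm38, the mouse build of the annotation used here, while Ciita lies on chromosome 16 at 10480059 to 10528418 and Cd74 on another chromosome. The promoter elements are shown because they are the sites through which class II genes are known to be switched on. For 7 of the 10 genes a RefSeq promoter window of 300 bases was at hand (250 before to 50 after the start, build GRCm38.p6). The Y box core, TGATTGG, was found on the gene's own strand in 6 of these 7 genes, H2-DMa being the exception with either of its 2 windows. Below are the 50 bases that end with that core, 5′ to 3′ on the gene's strand. Capitals mark the Y box core, the X box pattern (AAC and TGATG with any 3 bases between them), and in H2-Aa the stretch TGACGTC.
H2-Aa: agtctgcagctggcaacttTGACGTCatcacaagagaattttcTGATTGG
H2-Eb1: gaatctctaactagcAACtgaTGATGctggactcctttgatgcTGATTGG
H2-DMb1: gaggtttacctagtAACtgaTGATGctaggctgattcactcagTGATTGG
H2-DMb2: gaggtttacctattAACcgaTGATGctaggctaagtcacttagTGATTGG
H2-Oa: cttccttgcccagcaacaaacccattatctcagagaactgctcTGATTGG
H2-Ob: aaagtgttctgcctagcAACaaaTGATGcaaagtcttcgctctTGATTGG

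These windows lie at chr17:34287867-34287916 on the minus strand for H2-Aa, and on the plus strand at chr17:34305763-34305812 for H2-Eb1, chr17:34153085-34153134 for H2-DMb1, chr17:34145114-34145163 for H2-DMb2, chr17:34092291-34092340 for H2-Oa and chr17:34238803-34238852 for H2-Ob. The Y box core began 50 bases before the start in H2-Aa, 61 in H2-Eb1, 63 in H2-DMb1, 92 in H2-DMb2, 45 in H2-Oa and 59 in H2-Ob. The X box pattern preceded it by 17 bases in H2-Eb1, 18 in both H2-DMb1 and H2-DMb2 and 15 in H2-Ob, and was not matched in the H2-Aa, H2-Oa or H2-DMa windows. Searched on both strands, the Y box core was in 7.82% of all 32851 promoter windows, the X box pattern in 0.615% and TGACGTC in 3.21%. The X box pattern followed 5 to 30 bases later by the Y box core, in the gene's direction, was in 5 windows, or 0.0152%, and 4 of those 5 were the members named here. The patterns do not overlap, and they were written down after these sequences had been read. No window was used here for H2-Ab1, Cd74 or Ciita.

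Levels between genes were compared as CPM (reads scaled to the size of the library) divided by the length of the merged annotated exons in kb. In vehicle marrow Cd74 was highest at 235 ± 48.6 CPM per kb (SD, n = 5). H2-Ab1 (54.0 ± 10.3), H2-Eb1 (47.6 ± 10.6) and H2-Aa (30.3 ± 5.71) followed on the same scale, and the ranges of H2-Ab1 and H2-Eb1, and of H2-Eb1 and H2-Aa, overlapped. The editing genes came next, with H2-DMb1 at 14.6 ± 2.32, H2-DMb2 at 13.3 ± 3.35 and H2-DMa at 9.56 ± 1.33 CPM per kb, again with overlapping neighbours. H2-Ob (5.02 ± 1.14), Ciita (4.36 ± 1.04) and H2-Oa (3.25 ± 0.383) were lowest, Ciita overlapping both of the others while H2-Ob lay above H2-Oa in every library. In vehicle kidney the order was much the same, from Cd74 at 78.7 ± 10.99 CPM per kb down to H2-Ob at 0.217 ± 0.0545 and H2-Oa at 0.189 ± 0.145, whose ranges overlapped. H2-DMb2 stood far lower against H2-DMb1 in kidney, at 1.14 ± 0.261 beside 10.3 ± 0.910 CPM per kb. The tissues' RNA was extracted with different protocols and the 2 tables were scaled separately, so the levels of the tissues stand side by side only as a description. Transcripts of H2-DMb1 and H2-DMb2 share 254 windows of 75 bases, 15.8% of those of H2-DMb1, so reads from these stretches cannot be told apart and the split between the 2 genes is uncertain there. Annotated genes overlap H2-Eb1 (Gm20513), Cd74 (Mir5107), Ciita (Dexi), H2-Oa (BC051537) and H2-DMa (Brd2 and 3 others), and whether the counting used strand is not given in the sources used here, so part of their reads could belong to those genes.

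In bone marrow the class II set split. The classical chains and Cd74 did not pass the test, while both genes of the inhibitor H2-DO, the editing chain H2-DMb2 and Ciita were lower in oxaliplatin mice. Of the 10 members, 4 were called lower and 0 higher by edgeR's quasi-likelihood test. A call needed a fold change over 1.5 and an adjusted p (Benjamini-Hochberg) under 0.05. None was higher by DESeq2, and at an unadjusted p under 0.05, which 42.4% of all genes had, 4 were lower and 0 higher. Of all 22363 genes tested in marrow, 23.3% were called, 11.6% higher and 11.8% lower. By fold alone 4 of 10 members were lower beyond 1.5, beside 18.4% of all genes. The median log2 fold change of the members was -0.06, beside -0.04 over all genes tested.

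H2-Ob, the beta chain of the inhibitor, read 23.2, 33.3, 20.4, 24.3 and 33.8 CPM in the vehicle libraries 1 to 5 and 9.71, 9.06, 3.89, 7.21 and 8.68 CPM in the oxaliplatin libraries. The groups did not overlap, as in 24.9% of all genes tested, and every oxaliplatin library read below the lowest vehicle library. H2-Ob was lower by 3.51-fold (log2 fold change -1.81, SE 0.23, adjusted p 6.2e-05). Its partner H2-Oa read 5.03, 4.83, 3.69, 4.47 and 4.87 CPM with vehicle and 1.84, 1.66, 0.979, 1.58 and 1.73 CPM with oxaliplatin. Here too the groups did not overlap, and the mean fell from 4.58 ± 0.539 to 1.56 ± 0.338 CPM (SD, n = 5), a log2 fold change of -1.56 (SE 0.21, adjusted p 8.5e-05). H2-Oa rested on 117 to 166 reads per vehicle library and 42 to 71 per oxaliplatin library. Both calls held without any one of the 10 libraries.

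H2-DMb2, a beta chain of the peptide editor, read 19.5, 24.3, 16.95, 22.7 and 32.3 CPM with vehicle and 15.9, 16.4, 5.03, 10.7 and 14.7 CPM with oxaliplatin. The groups did not overlap but nearly touched, 16.95 CPM being the lowest vehicle value and 16.4 CPM the highest with oxaliplatin. The log2 fold change was -0.89 (SE 0.28, adjusted p 0.0286), and the call was lost without vehicle library 2 or 5 or oxaliplatin library 4, with adjusted p of 0.0556, 0.0738 and 0.0583. Ciita, the transactivator, read 35.7, 43.03, 32.3, 39.2 and 57.9 CPM with vehicle and 29.5, 21.7, 16.6, 40.4 and 22.1 CPM with oxaliplatin. In this gene 4 of the 5 oxaliplatin libraries read below every vehicle library and library 4 lay among them. Its log2 fold change was -0.67 (SE 0.23, adjusted p 0.0366). The call for Ciita was lost on leaving out any of 6 libraries (vehicle 2, 4 or 5, oxaliplatin 2, 3 or 5), where adjusted p ran up to 0.0946. Without oxaliplatin library 4 its log2 fold change was -0.89 (adjusted p 0.00442). Scaling by library size alone also ended the calls for Ciita (adjusted p 0.118) and H2-DMb2 (adjusted p 0.0560), as did no filter beyond 1 count (0.0730 and 0.0711) and, for Ciita, a covariate of Y-linked genes (0.124).

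The remaining 6 members did not pass the test in marrow. H2-Aa, the alpha chain of H2-A, lay at 91.3 to 140 CPM with vehicle and 85.7 to 185 CPM with oxaliplatin, and its log2 fold change was 0.03 (SE 0.20, adjusted p 0.928). H2-Ab1, its beta chain, lay at 109 to 172 CPM and 97.9 to 226 CPM, with a log2 fold change of -0.03 (SE 0.22, adjusted p 0.933). The groups overlapped for both, and the sign of these small values turned under other settings. H2-Eb1, the beta chain of H2-E, gave a log2 fold change of 0.12 (SE 0.22, adjusted p 0.720) and the invariant chain Cd74 one of -0.09 (SE 0.21, adjusted p 0.772). For the editing chains H2-DMa (0.14, SE 0.12, adjusted p 0.403) and H2-DMb1 (0.10, SE 0.15, adjusted p 0.655) the log2 fold changes were as small. In these 6 genes the highest of the 10 values was oxaliplatin library 4 each time, with 226 CPM for H2-Ab1 and 589 CPM for Cd74. In the same library Itgax, a dendritic cell integrin, read 59.2 CPM against 19.4 to 31.2 CPM in the other 9, a gene named after its values were seen. Without that library the log2 fold changes of H2-Aa, H2-Ab1, H2-Eb1 and Cd74 were -0.19, -0.29, -0.10 and -0.32, and none of them passed.

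**Figure D1:**
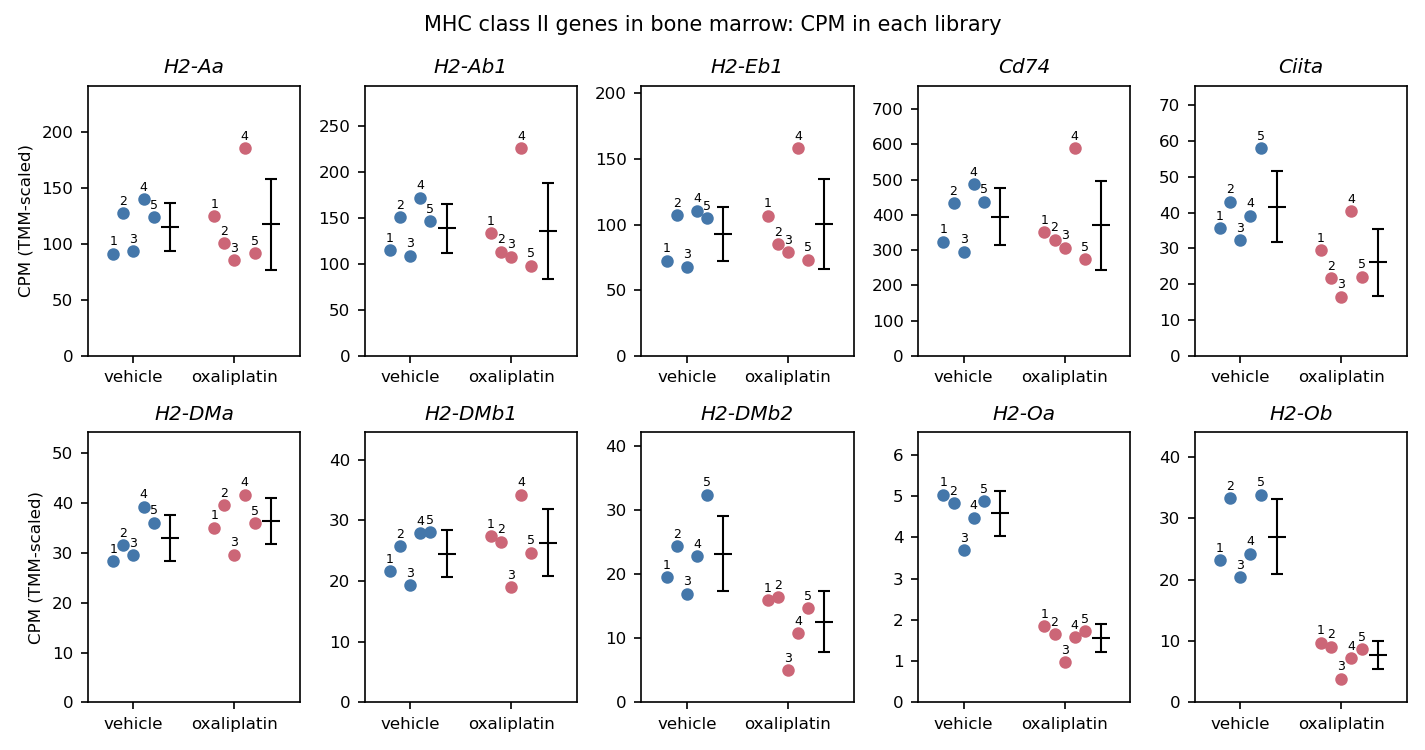
Each panel plots 1 gene in bone marrow, with TMM-scaled CPM on a linear axis from 0 and 1 point per library (numbers are replicate labels, blue vehicle, red oxaliplatin, black bar mean ± SD, n = 5). H2-DMb2, H2-Oa and H2-Ob show no overlap between the groups, while oxaliplatin library 4 tops the panels of the classical chains and Cd74.

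In kidney the classical chains H2-Aa and H2-Eb1 and the inhibitor chain H2-Ob were lower with oxaliplatin, while H2-Ab1 did not pass the test, and all 9 tested members had a negative log2 fold change, although those of H2-DMb1 and H2-DMb2 were near 0 and turned positive with scaling by library size alone. Of the 9 tested members, 3 were called lower and 0 higher by the same test (7 lower and 0 higher at an unadjusted p under 0.05, which 40.7% of all genes had), and their median log2 fold change was -0.90 beside 0.02 over all genes. Of all 19293 genes tested in kidney, 11.5% were called, 7.68% higher and 3.81% lower. By fold alone 6 of 9 members were lower beyond 1.5, beside 5.16% of all genes. None was higher by DESeq2.

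H2-Aa read 47.9, 47.1, 50.9, 42.8 and 55.8 CPM in the vehicle kidneys 1 to 5 and 32.8, 13.5, 13.5, 25.6 and 9.81 CPM in the oxaliplatin kidneys. The groups did not overlap, as in 20.7% of all genes tested in kidney, and the oxaliplatin values were spread far more widely than the vehicle values. H2-Aa was 2.57-fold lower (log2 fold change -1.36, SE 0.32, adjusted p 0.0130). H2-Eb1 read 55.5, 57.8, 61.9, 48.9 and 61.2 CPM with vehicle and 36.7, 17.3, 16.4, 28.4 and 11.1 CPM with oxaliplatin. It too was separated between the groups, with a log2 fold change of -1.38 (SE 0.30, adjusted p 0.00904). H2-Ob, far lower in level, read 1.42, 0.762, 0.994, 1.21 and 1.46 CPM with vehicle and 0.359, 0.168, 0.503, 0.386 and 0.150 CPM with oxaliplatin. That was a log2 fold change of -1.90 (SE 0.36, adjusted p 8.9e-04), without overlap, on 20 to 38 reads per vehicle library and 5 to 14 per oxaliplatin library. These 3 calls held without any one of the 10 kidney libraries. H2-Ob passed the filter on low counts through the vehicle kidneys. With at least 10 counts required in every library it was not tested, and 2 members were called lower. H2-Oa had 11, 0, 12, 4 and 6 reads with vehicle and 0, 0, 2, 0 and 0 with oxaliplatin, and a count of 0 allows up to 3 reads, or 0.0900 to 0.130 CPM over the kidney libraries.

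H2-Ab1, the partner of H2-Aa, read 73.6, 77.8, 83.5, 73.9 and 99.3 CPM with vehicle and 89.5, 29.9, 32.0, 45.3 and 21.9 CPM with oxaliplatin. Cd74 read 121, 130, 139, 111 and 159 CPM with vehicle and 121, 47.1, 52.3, 83.5 and 30.7 CPM with oxaliplatin. In both genes 4 of the 5 oxaliplatin kidneys lay below every vehicle kidney and oxaliplatin library 1 lay among the vehicle values. Neither passed, with log2 fold changes of -0.90 (SE 0.37, adjusted p 0.100) for H2-Ab1 and -0.98 (SE 0.35, adjusted p 0.0658) for Cd74. Ciita (-0.53, SE 0.23, adjusted p 0.0951) and H2-DMa (-0.63, SE 0.23, adjusted p 0.0525) did not pass either, with 4 of the 5 oxaliplatin kidneys below every vehicle kidney and oxaliplatin library 1 above them all for Ciita and among them for H2-DMa, at 10.3 and 9.33 CPM against vehicle ranges of 8.65 to 9.78 and 7.13 to 10.4 CPM. H2-DMb1 lay at 14.9 to 18.5 CPM with vehicle and 12.5 to 25.2 CPM with oxaliplatin, with a log2 fold change of -0.03 (SE 0.15, adjusted p 0.887). H2-DMb2 ranged from 1.33 to 2.42 CPM with vehicle and from 0.570 to 4.92 CPM with oxaliplatin, with a log2 fold change of -0.03 (SE 0.54, adjusted p 0.975).

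Oxaliplatin library 1 had the highest value of the 5 oxaliplatin kidneys in 8 of the 9 tested members, H2-Ob being the exception. Without it, 7 of 9 members were called lower: H2-Aa, H2-Eb1 and H2-Ob as before, and H2-Ab1 (log2 fold change -1.33, adjusted p 0.00114), Cd74 (-1.30, 0.0108), Ciita (-0.78, 0.00353) and H2-DMa (-0.92, 7.8e-04) in addition. With all 10 libraries, DESeq2 in place of edgeR called 6 members lower, adding H2-Ab1 (adjusted p 0.0426), Cd74 (0.0208) and H2-DMa (0.0183).

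**Figure D2:**
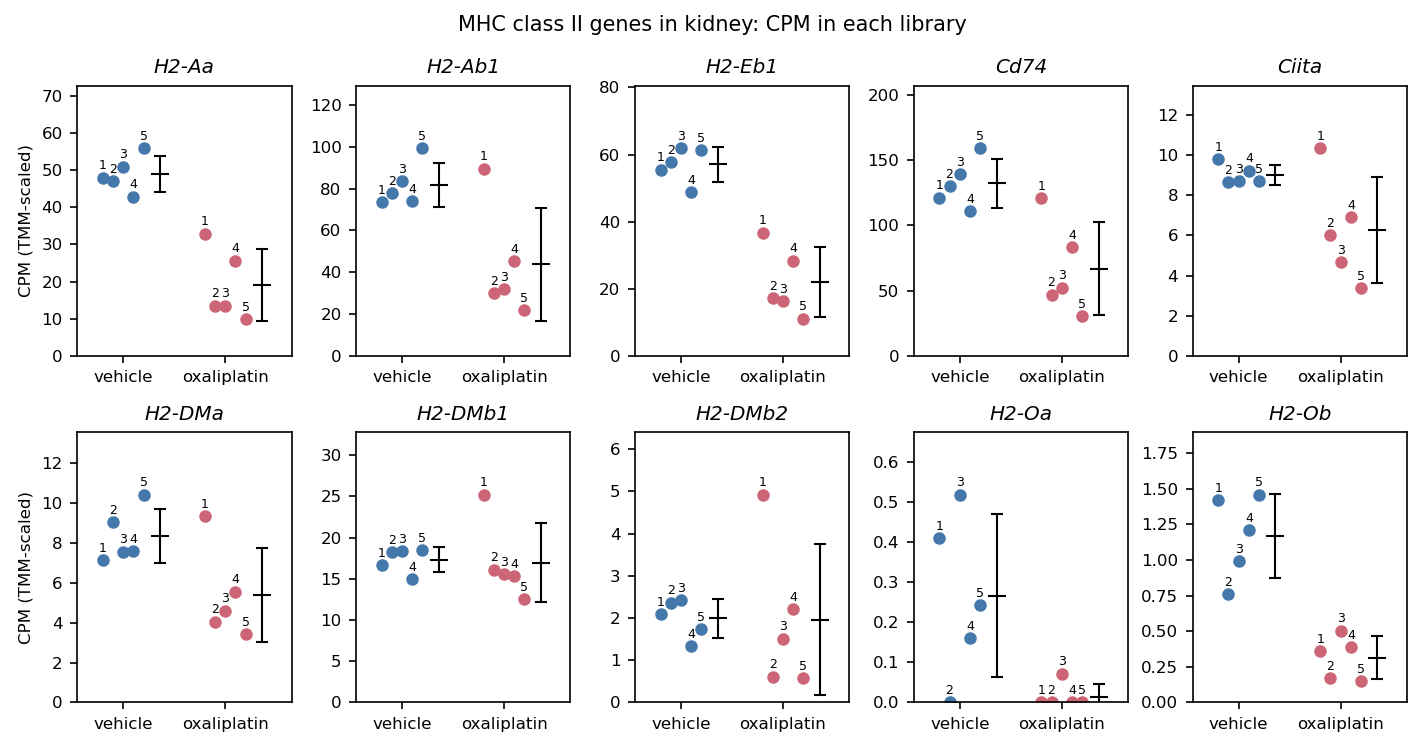
Each panel plots 1 gene in kidney, with TMM-scaled CPM on a linear axis from 0 and 1 point per library (numbers are replicate labels, blue vehicle, red oxaliplatin, black bar mean ± SD, n = 5). H2-Aa, H2-Eb1 and H2-Ob do not overlap between the groups, and oxaliplatin library 1 sits near or above the vehicle values in most other panels.

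Whether a member changed by a different amount in the 2 tissues was tested as an interaction of tissue and treatment over all 20 libraries. The labels do not say which marrow and kidney libraries came from the same mice, and the fit treated all 20 as independent. The change in kidney was lower than that in marrow for H2-Eb1 (difference of log2 fold changes -1.56, SE 0.36, adjusted p 0.00276), H2-Aa (-1.45, SE 0.37, adjusted p 0.00525) and H2-DMa (-0.83, SE 0.27, adjusted p 0.0218). These were 3 of the 10 members, where 30.1% of all 24321 genes passed this test and 17% passed it with a lower change in kidney. Cd74 (-0.95, SE 0.39, adjusted p 0.0724), H2-Ab1 (-0.93, SE 0.41, adjusted p 0.0969) and H2-Oa (-2.47, SE 0.95, adjusted p 0.0527) did not pass, the value for H2-Oa resting on 0 to 2 reads per oxaliplatin kidney. The H2-Oa difference passed without marrow oxaliplatin library 3 (-2.57, adjusted p 0.0427), kidney vehicle library 2 (-2.80, adjusted p 0.00758) or 4 (-2.61, adjusted p 0.0492), or kidney oxaliplatin library 3 (-4.82, adjusted p 0.0123), the last leaving no reads in that group. H2-Oa was too low to be tested in kidney alone and entered this fit only through its marrow counts. Its difference, passing or not, therefore does not show a change in kidney. For H2-Ob, called lower in both tissues, the difference was -0.15 (SE 0.38, adjusted p 0.817), which does not show equal changes. The kidney value of H2-Ob rested on 5 to 14 reads per oxaliplatin library. For Ciita, called in marrow alone, the difference was 0.09 (SE 0.34, adjusted p 0.878). H2-DMb2, called in marrow and not in kidney, gave a difference of 0.81 (SE 0.59, adjusted p 0.326), so its 2 changes were not shown to differ. Without kidney oxaliplatin library 1, Cd74 (-1.28, adjusted p 0.00664) and H2-Ab1 (-1.37, adjusted p 0.00206) passed as well, 5 members in all.

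**Figure D3:**
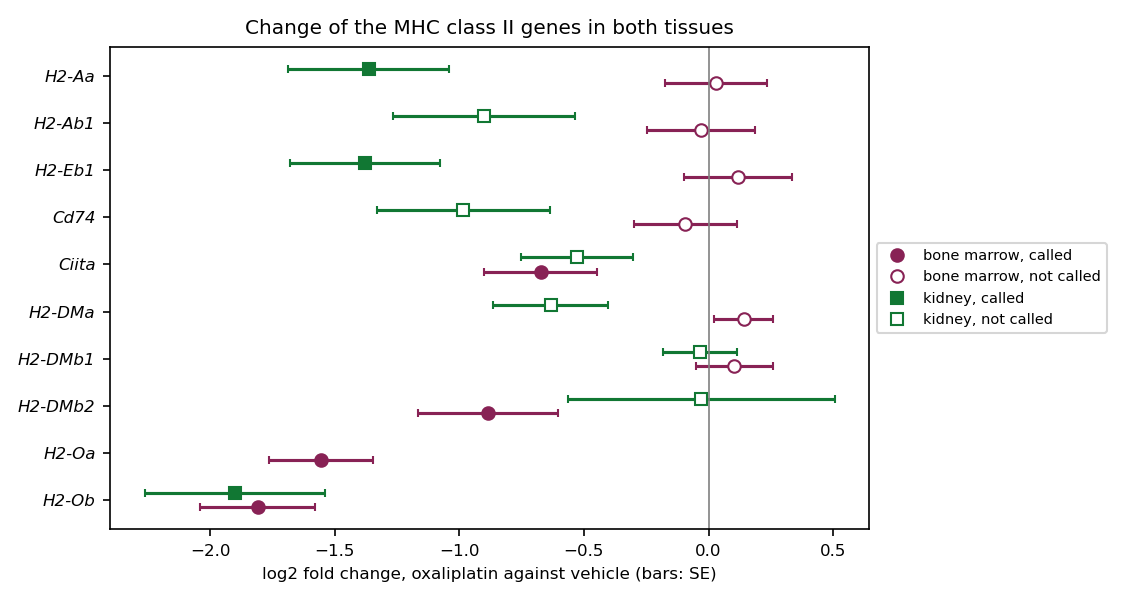
The x axis gives the log2 fold change of oxaliplatin against vehicle for each member, circles for bone marrow and squares for kidney, filled where called, with bars of 1 SE (5 libraries a group). H2-Aa and H2-Eb1 lie near 0 in marrow and at -1.36 and -1.38 in kidney, while H2-Ob lies at -1.81 and -1.90 (H2-Oa was not tested in kidney).

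Ratios between members within each library do not depend on the scaling between libraries. They were compared as differences of log2 CPM with an exact two-sided permutation test over all divisions of the 10 libraries, whose smallest p is 0.00794, and adjusted over the 32 ratios of both tissues. In marrow the inhibitor chains fell against the editor chains, with log2 changes of -1.69 for H2-Oa to H2-DMa and -1.93 for H2-Ob to H2-DMb1, both with exact p 0.00794 and adjusted p 0.0169. Every oxaliplatin library lay below every vehicle library in both ratios, -4.84 to -4.21 against -3.12 to -2.48 for the first. The ratio of the 2 editor beta chains, H2-DMb2 to H2-DMb1, fell by 1.06 and that of Ciita to H2-Ab1 by 0.63, with the same exact p and adjusted p. Within the classical set, H2-Aa to H2-Ab1 differed by 0.07 (adjusted p 0.264) and Cd74 to H2-Ab1 by -0.04 (adjusted p 0.310), while H2-Eb1 to H2-Ab1 was higher by 0.17 (exact p 0.0238, adjusted p 0.0381), a call lost without any of 6 of the 10 libraries (vehicle 1 or 4, oxaliplatin 1, 2, 3 or 5; adjusted p up to 0.0773). In kidney H2-Ob to H2-DMb1 fell by 1.68 (exact p 0.00794, adjusted p 0.0169). H2-Aa and H2-Eb1 each fell against H2-Ab1, by 0.43 and 0.42 (exact p 0.0159 and adjusted p 0.0299 for both), so the chains of one heterodimer changed by unequal amounts there. Ciita to H2-Ab1 was higher by 0.45 in kidney (exact p 0.0238, adjusted p 0.0381), the opposite direction to marrow, but this call was lost without any of 8 of the 10 kidney libraries (all but vehicle 1 and oxaliplatin 1), with adjusted p up to 0.0847.

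**Figure D4:**
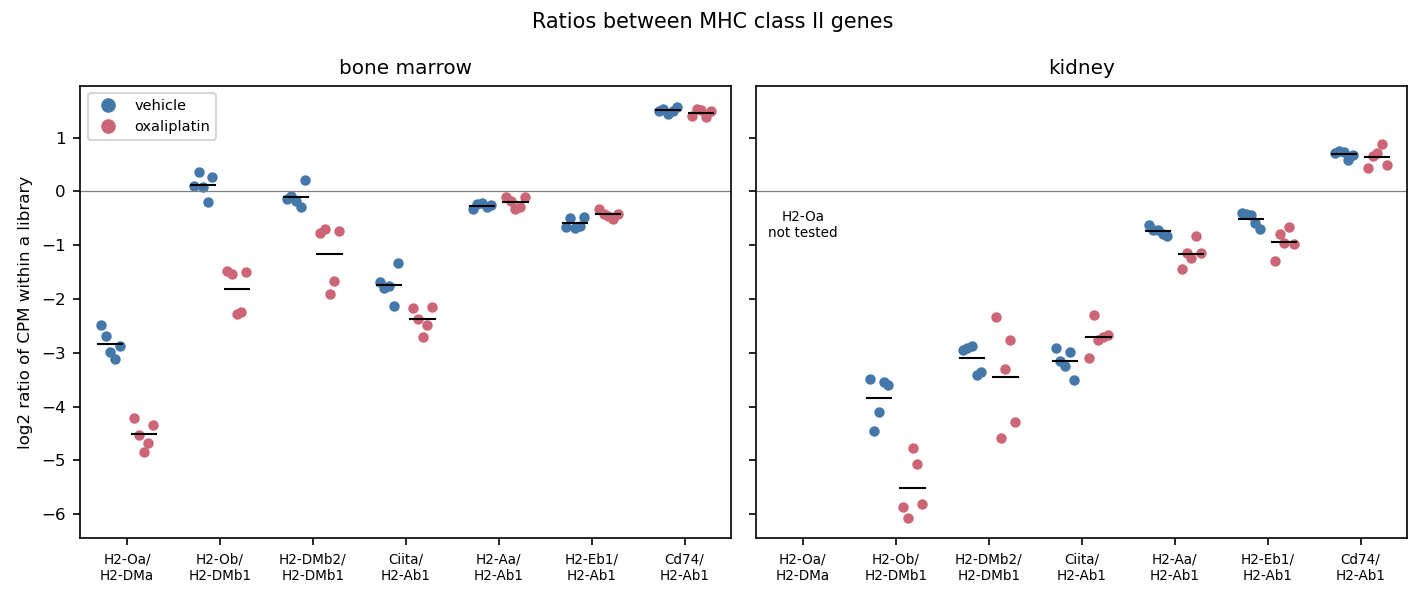
The y axis gives the log2 ratio of the CPM of 2 members within a library, 1 point per library (blue vehicle, red oxaliplatin) with the group mean as a line. In marrow H2-Oa/H2-DMa and H2-Ob/H2-DMb1 separate fully between the groups, with changes of -1.69 and -1.93, and the kidney shows a change of -1.68 in H2-Ob/H2-DMb1.

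Markers of the cells that express class II moved in both tissues. In marrow 13 of 15 B cell markers were called lower, with a median log2 fold change of -1.99, and their summed level was 899 to 1465 CPM with vehicle and 354 to 450 CPM with oxaliplatin. Among them Pax5, the B lineage factor, fell (-2.82, adjusted p 1.9e-06). Set against the mean log2 CPM of these markers in the same library, H2-Aa was higher with oxaliplatin by 2.20, H2-Ab1 by 2.13, Cd74 by 2.09 and H2-DMa by 2.35 on the log2 scale (exact p 0.00794, adjusted p 0.0169 for each). The log2 fold changes of these members themselves were 0.03, -0.03, -0.09 and 0.14. Their differences from the markers therefore restate the fall of the markers, and the p-values do not test a rise of the members. H2-Oa was higher against the markers by 0.67 (exact p 0.0397, adjusted p 0.0577) and H2-Ob by 0.37 (exact p 0.278, adjusted p 0.317), neither of which passed. H2-Oa did pass against the median of the markers (0.58, adjusted p 0.0267) and without oxaliplatin library 3 (adjusted p 0.0159) or 4 (adjusted p 0.0462). H2-DMb2 lay between, higher by 1.25 (exact p 0.0238, adjusted p 0.0381), a call lost without any of 6 of the 10 libraries (vehicle 1, 2 or 4, oxaliplatin 1, 2 or 5; adjusted p up to 0.0808). Of the members, H2-Oa and H2-Ob had the smallest differences from the mean of the B cell markers. Not passing does not show that they changed by the same amount as the markers. The part of B cell numbers in these values was not tested.

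Of the other markers in marrow, 5 of 12 macrophage markers were called higher and 2 lower, at 1402 to 1882 CPM in sum with vehicle and 1566 to 3419 CPM with oxaliplatin. The macrophage receptor Mrc1 (log2 fold change 1.47) and the complement gene C1qa (1.37) rose most, and Spic (-1.06) and Cx3cr1 (-0.70) fell. Ratios to the macrophage markers were added after seeing the data. They were adjusted over 32 ratios of both tissues, made up of these and the ratios between members. Against the mean of these markers, H2-Aa changed by -0.37 (exact p 0.222, adjusted p 0.296) and H2-Ab1 by -0.44 (exact p 0.183, adjusted p 0.278), while H2-Ob fell by 2.20 (exact p 0.00794, adjusted p 0.0231). Conventional dendritic cell markers went both ways, 3 of 10 higher, led by the lectin Clec10a (4.34) and Batf3 (1.60), and 3 lower, led by Cd209a (-1.35) and Zbtb46 (-0.77). Plasmacytoid dendritic cell markers fell in 4 of 8 cases, Klk1 by 3.25 and Siglech by 2.82 most. The part of these cell types in the members' levels was not tested.

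In kidney the defining B cell markers were close to 0. Ms4a1 had 0 to 8 reads per library and Cd79a 0 to 29, and only 6 of the 15 markers could be tested, of which Ighm was called lower (-1.27) and Ebf1 higher (0.75). Their summed level was 16.9 to 18.9 CPM with vehicle and 17.01 to 20.7 CPM with oxaliplatin, Vpreb1 and Ebf1 included. Macrophage markers were called lower in 5 of the 10 tested, at 195 to 231 CPM in sum with vehicle and 129 to 156 CPM with oxaliplatin. Among them Adgre1, a macrophage surface receptor, fell by 1.07 and C1qc by 0.96 on the log2 scale, while Mrc1 was higher (0.83). Against the mean of these macrophage markers H2-Aa changed by -1.10, H2-Eb1 by -1.09 and H2-Ob by -1.34 in kidney (exact p 0.00794, adjusted p 0.0231 for each). Ciita (-0.21, exact p 0.476, adjusted p 0.508) and H2-DMa (-0.30, exact p 0.222, adjusted p 0.296) did not pass. Neither did H2-Ab1 (-0.67, adjusted p 0.0847), Cd74 (-0.73, adjusted p 0.0747), H2-DMb1 (0.34, adjusted p 0.134) and H2-DMb2 (-0.01, adjusted p 0.976) by the same test. The dendritic cell integrin Itgax was called lower (-0.85, adjusted p 0.00997), as 1 of 8 tested dendritic cell markers. The part of macrophage and dendritic cell numbers in the kidney values was not tested.

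**Figure D5:**
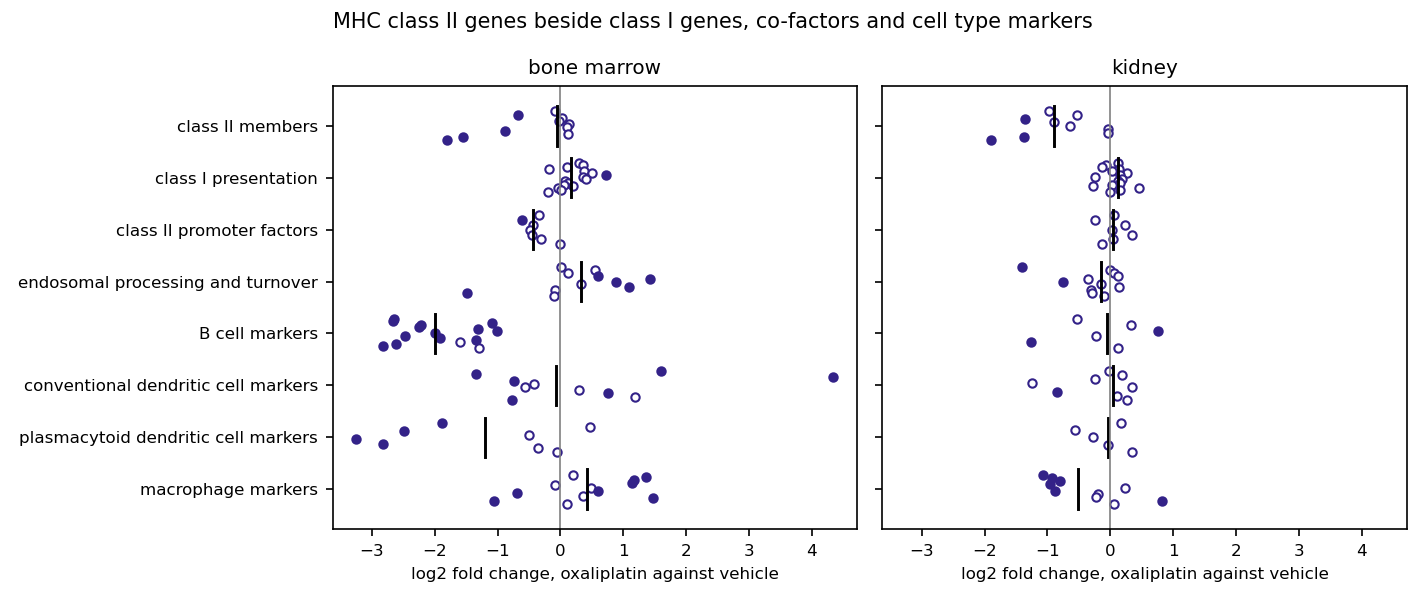
Each point is the log2 fold change of 1 tested gene of a list, oxaliplatin against vehicle, filled where called, with the list's median as a bar. In marrow the B cell markers have a median of -1.99 and class II members split between values near 0 and falls, while in kidney the members have a median of -0.90 and class I genes one of 0.12.

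The genes that act with the class II set were looked at by list. Of the promoter factors, Rfx5, Rfxap and Rfxank form the complex that binds the X box, Nfya, Nfyb and Nfyc form NF-Y at the Y box, and Creb1 binds the CRE-like stretch. In marrow their log2 fold changes were -0.46 for Rfx5, -0.01 for Rfxap, -0.31 for Rfxank, -0.61 for Nfya, -0.44 for Nfyb, -0.48 for Nfyc and -0.34 for Creb1. In 6 of these 7 the adjusted p was under 0.05, as in 33.1% of all genes, but only Nfya passed the fold as well. Nfya was no longer called with median ratio size factors, with library size alone or by DESeq2. In kidney 0 of the 7 were called by edgeR or by DESeq2, and 3 had an unadjusted p under 0.05. The kidney values were 0.35 for Rfx5, -0.13 for Rfxap, 0.04 for Rfxank, -0.24 for Nfya, 0.24 for Nfyb, 0.03 for Nfyc and 0.06 for Creb1.

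Of the genes that act on Ciita, Pax5 (-2.82), the interferon regulatory factor Irf4 (-1.74, adjusted p 8.3e-05) and Irf8 (-0.86, adjusted p 3.3e-06) fell in marrow. Prdm1, the plasma cell repressor of Ciita, rose there (0.81, adjusted p 0.00242). The interferon gamma arm gave small values in marrow, Ifngr1 0.31, Ifngr2 0.08, Jak1 -0.23, Jak2 -0.22, Irf1 0.16 and Socs1 0.44, as did Spi1 with 0.03, and none was called. Ifng itself was too low to be tested, with 0, 0, 1, 2 and 1 reads in vehicle marrow and 7, 5, 8, 5 and 6 with oxaliplatin, and 0 to 2 reads in vehicle kidneys against 0 in all 5 oxaliplatin kidneys. In kidney 0 of 11 tested genes of this list were called by edgeR or by DESeq2, 3 had an unadjusted p under 0.05, and the values ran from Prdm1 at -0.70 to Irf8 at 0.28.

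Of the 11 endosomal processing and turnover genes, 4 rose and 1 fell in marrow. Cathepsin S (Ctss), which makes the last cut of the invariant chain, read 149 to 194 CPM with vehicle and 239 to 356 CPM with oxaliplatin, a log2 fold change of 0.89 (adjusted p 1.1e-04). Cathepsin L (Ctsl, 1.43), legumain (Lgmn, 1.09) and cathepsin D (Ctsd, 0.60) were called higher too. Marchf8, a ubiquitin ligase that removes class II from the surface, was called lower (-1.49, adjusted p 9.2e-07). Its relative Marchf1 (-0.09), the stabiliser Cd83 (0.01), Ctsb (0.12), Ifi30 (0.32), Cst3 (0.55) and Sppl2a (-0.10), which clears the invariant chain stub, were not called. In kidney Ctss fell (-0.75, adjusted p 0.0136) and Cd83 fell (-1.40, adjusted p 0.00539), 2 of 11 called. The other 9 in kidney were Ctsl -0.36, Ctsb 0.06, Ctsd 0.12, Lgmn 0.15, Ifi30 -0.15, Cst3 -0.01, Marchf1 -0.30, Marchf8 -0.30 and Sppl2a -0.11. Ctss thus changed in opposite directions in the 2 tissues.

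In marrow 1 of 16 class I presentation genes was called, Nlrc5, the class I counterpart of Ciita (0.73, adjusted p 0.00330), 8 had an unadjusted p under 0.05, and the median was 0.17. In kidney 0 of 16 were called by edgeR or by DESeq2, 3 had an unadjusted p under 0.05, and the median was 0.12. Class I genes that lie between the class II members on chromosome 17, Tap1, Tap2, Psmb8 and Psmb9, together with Brd2, were the 5 neighbours tested in each tissue, and none was called in either. Their log2 fold changes ran from -0.10 to 0.13 in marrow and from -0.15 to 0.46 in kidney. Of the other class II loci, H2-Eb2 was tested in marrow alone (-0.19, adjusted p 0.733) and H2-Ea, annotated as a polymorphic pseudogene, had 0 to 13 reads in marrow and 0 or 1 in kidney. The list of costimulatory and related surface genes gave 2 of 7 called higher in marrow, Cd1d1 (1.21), which presents lipids, and Cd274 (1.14), the inhibitory ligand PD-L1, and 1 lower, the costimulatory receptor Cd40 (-1.10). In kidney Cd40 (1.01) and Icosl (0.86) were called higher, 2 of 5 tested.

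The tissue labels were looked at against defining markers. Neutrophil markers summed to 7732 to 19505 CPM in marrow and at most 2.56 CPM in kidney, and kidney epithelial markers to 17634 to 29822 CPM in kidney and at most 13.01 CPM in marrow. The remaining marker lists gave these values beside the members. In marrow all 8 erythroid markers were called lower (median log2 fold change -2.69), led by Slc4a1 (-2.86) and Alas2 (-2.84), 0 of 8 neutrophil markers were called by edgeR or DESeq2 or had an unadjusted p under 0.05, and 1 of 10 T cell markers was called, Cd4 (-1.47). The median of the marrow T cell list was 0.26. With median ratio size factors, library size alone or DESeq2, 2 marrow T cell markers were called higher and 1 lower. Monocyte markers gave F13a1 higher (1.18) and Ms4a4c lower (-0.97) of 6 there, endothelial markers 3 of 6 higher, led by Emcn (1.14) and Cdh5 (1.10), and kidney epithelial markers 1 of 3 tested, Slc12a3 (-2.73). In kidney the epithelial markers gave 2 higher, Nphs1 (0.60) among them, and 1 lower, Kap (-1.90), of 10, and the endothelial markers 3 of 6 higher, led by Cdh5 (0.99) and Flt1 (0.79). F13a1 (3.48) was called higher in kidney as 1 of 4 tested monocyte markers, Slc4a1 (0.69) as 1 of 7 erythroid markers, and Trac (-1.01) was called lower as 1 of 6 T cell markers. No neutrophil marker was tested in kidney, and 0 of 5 plasmacytoid dendritic cell markers were called there by either tool, 3 having an unadjusted p under 0.05. The plasmacytoid list summed to 1439 to 1789 CPM in vehicle kidney and 178 to 196 CPM in vehicle marrow. In kidney it therefore cannot be read as a measure of these cells. Of the 4 Y-linked genes 0 were called in either tissue by edgeR or DESeq2, with 1 in marrow and 0 in kidney at an unadjusted p under 0.05. The part of any of these cells in the members' levels was not tested.

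As a description of likeness, the genes whose log2 CPM over the 10 marrow libraries tracked most closely the mean standardised level of H2-Aa, H2-Ab1, H2-Eb1 and Cd74 were Gbp9, an interferon-inducible GTPase (Pearson r 0.967), Zbp1 (0.898), Tram2 (0.895), Slc16a13 (0.857) and Tmtc4 (0.856), out of 15052 genes compared. Among the members outside that mean, H2-DMb1 had r 0.847, H2-DMa 0.640, Ciita 0.630, H2-DMb2 0.202, H2-Ob 0.159 and H2-Oa 0.130 in marrow. In kidney the closest of 13793 genes were Psme2 (0.967), Krt8 (0.961), Rpl9 (0.960), C1qa (0.959) and Spryd4 (0.953), with H2-DMa at 0.955, Ciita at 0.926, H2-DMb2 at 0.720 and H2-DMb1 at 0.618. The points of these correlations are the 10 libraries of a tissue, which share treatment groups and scaling, and in marrow oxaliplatin library 4 is the extreme point. Without that library, a setting added after seeing the data, r was 0.936 for Gbp9, 0.805 for Zbp1, 0.806 for Tram2, 0.693 for Slc16a13 and 0.783 for Tmtc4. Of the members it was then 0.748 for H2-DMb1, 0.473 for H2-DMa, 0.684 for Ciita, 0.594 for H2-DMb2, 0.570 for H2-Ob and 0.504 for H2-Oa, so the low values of the last 3 rested on library 4. Without kidney oxaliplatin library 1, r was 0.964 to 0.973 for the 5 kidney genes, 0.971 for H2-DMa, 0.940 for Ciita, 0.793 for H2-DMb2 and 0.787 for H2-DMb1.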

How the data were processed

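The authors deposited raw gene counts for 10 bone marrow and 10 kidney libraries. The labels and the submitters' processing notes name STAR, Subread featureCounts and Salmon, ribosomal RNA removal and random hexamer priming, whereas the study's methods describe another library kit, STAR and unambiguous unique reads. Which applies was not settled here, and counts of similar or overlapping genes could differ between them. After 287 repeated lines and 1 line with missing values were dropped, 55486 genes remained in each table.

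Counts were fitted per tissue with edgeR 4.0.16 (R 4.3.3; TMM scaling, filterByExpr at a minimum count of 10, robust quasi-likelihood F-test, Benjamini-Hochberg adjustment over all genes tested). Called means a fold change over 1.5 with an adjusted p under 0.05. CPM are TMM-scaled. The interaction was fitted over all 20 libraries. Ratios used log2 CPM with a prior count of 2. DESeq2 1.42.0 was an alternative, and the scripts were tested on simulated data. Positions and exon lengths come from a GRCm38 annotation that held 55141 of the identifiers.

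Members, lists and tests were chosen with earlier results of these data known. Named are all members, every gene of the lists of other class II loci, promoter factors, Ciita regulators and endosomal genes, the 2 largest called rises and falls of each other list, the 5 genes per tissue most like the classical chains and Cd74, and any called neighbour on chromosome 17. Intervals and limits at 0 cover counting error only. Values of some genes of these lists are not reported here.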

Additional observations from a re-analysis of the deposited data

Results flagged for a closer look

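Of 40 groups of 5 libraries of the members looked at for a value far from the rest, 4 held one. Chance alone gives about 1 in 20 among independent groups. These groups share libraries and several members tracked each other, so the count cannot be set against that share. Marrow oxaliplatin library 4 read 226 CPM for H2-Ab1, where the next highest of its group read 134 CPM, and 589 CPM for Cd74, where the next read 352 CPM. Kidney oxaliplatin library 1 read 25.2 CPM for H2-DMb1 against 16.1 CPM for the next. Kidney oxaliplatin library 3 was the only one of its group with any H2-Oa, at 0.0719 CPM or 2 reads, which is under the 3 reads that a count of 0 allows.

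The change with oxaliplatin differed between the tissues in 3 members by the interaction test in edgeR. The difference, kidney minus marrow on the log2 scale, was -1.56 for H2-Eb1 (adjusted p 0.00276), -1.45 for H2-Aa (adjusted p 0.00525) and -0.83 for H2-DMa (adjusted p 0.0218). Each kept its direction and its side of the threshold without any one of the 20 libraries.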

How the results depend on the processing

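With a fold change beyond 2 the genes called were 3231 of the 5221 in marrow and 941 of the 2216 in kidney, and the members lower in marrow went from 4 to 2. That count was also 2 with library size alone and with no filter beyond 1 count, and 2 to 4 with 1 library left out (2 without vehicle library 2 or 5). In kidney 3 members became 6 by DESeq2 and 3 to 7 with 1 library left out (7 without oxaliplatin library 1). They were 2 with at least 10 counts in every library, where H2-Ob was not tested. The interaction members went from 3 to 5 with a replicate block, which took same-numbered marrow and kidney libraries of a group as 1 mouse. It added H2-Ab1 (-1.06, adjusted p 0.0127) and Cd74 (-1.07, adjusted p 0.00918). With 1 library left out the interaction members were 3 to 5. Library size alone moved the median log2 fold change of all genes by 0.146 in marrow and 0.133 in kidney, and the share of calls that were higher from 49.6% to 63.4% and from 66.8% to 82.7%.

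Same-numbered vehicle and oxaliplatin libraries did not deviate together (correlations -0.118 to 0.228 in marrow, -0.154 to 0.0754 in kidney), so the numbers give no pairing of the groups within a tissue. Same-numbered marrow and kidney libraries of a group gave correlations of -0.0938 to 0.206. Whether they came from the same mouse is not given by the labels. The block of replicate numbers within a tissue gave 4968 genes in marrow and 2017 in kidney, and added Ciita in kidney (-0.61, adjusted p 0.0302).

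Small log2 values changed sign. In marrow H2-Aa was -0.00864 with the replicate block. H2-Ab1 was 0.0118 with median ratio size factors, 0.135 with library size alone, 0.137 with the Y-linked covariate, 0.000615 without hemoglobin genes and 0.0117 by DESeq2. Cd74 was 0.0697 with library size alone and 0.0592 with the Y-linked covariate. In kidney H2-DMb1 was 0.0972 and H2-DMb2 0.103 with library size alone, and H2-DMb1 against the median of the B cell markers was -0.103. With 1 library left out, marrow values ran from -0.193 to 0.144 for H2-Aa, -0.290 to 0.105 for H2-Ab1, -0.104 to 0.249 for H2-Eb1, -0.322 to 0.0361 for Cd74 and -0.0075 to 0.201 for H2-DMb1. Kidney values ran from -0.212 to 0.0690 for H2-DMb1 and -0.701 to 0.224 for H2-DMb2, and against B cell markers from -0.120 to 0.171 and -0.746 to 0.0323. The interaction ran from -0.162 to 0.299 for Ciita and -0.382 to 0.0471 for H2-Ob. The causes were not tested. The Y-linked covariate left 3 members in marrow (Ciita at adjusted p 0.124). Few reads limit H2-Oa and H2-Ob in kidney.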
